A study of Mus musculus with 10 samples.

Results

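Resting neutrophils that lack Lcn2 were compared here with resting wild type neutrophils. The comparison rests on 6 of the 10 arrays of the study: unstimulated wild type replicates 1 to 3 and unstimulated lcn2 knockout replicates 1 to 3. Each knockout array was set against the wild type array with the same replicate number, which gives 3 pairs. All groups carry the labels C57bl/6, female and 10 weeks of age, and the wild type cells are the only control. Neutrophils were enriched from tibia and femur marrow at the interface between 62% and 81% Percoll after red cell lysis, and total RNA was hybridised to Affymetrix Mouse Gene ST arrays. The remaining 4 arrays hold cells of both genotypes (2 arrays each) treated with fMLP, a formylated peptide that attracts neutrophils, for 20 minutes at a concentration of 10 micromolar, at 37 degrees. How the knockout was made and which part of the gene it removes are not given in the sources used here. The labels do not say whether replicates came from separate animals, so p-values measure only the spread between these arrays, which may be technical.

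Lipocalin 2 is a small secreted protein that neutrophils make as they mature in the marrow and store in their secondary granules. It binds bacterial siderophores, the molecules with which bacteria collect iron, and so keeps iron from them. Neutrophils carry their granule proteins ready made: primary granules hold enzymes such as myeloperoxidase, secondary granules hold lactoferrin and lipocalin 2, and tertiary granules hold gelatinase. The study asks what lipocalin 2 does in neutrophils at rest and after fMLP.

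Signals are RMA values on a scale taken as log2, so a difference of 1 is a doubling, and all differences are knockout minus wild type within a pair. Of 19938 genes with a probe set, 11646 were tested. On both replicate 3 arrays the values were spread more widely (interquartile range 2.51 in wild type and 2.5 in knockout) than on the arrays of replicates 1 and 2 (1.64 to 1.68). Correlations across probe sets were 0.996 between the 2 genotypes of replicate 3, 0.977 to 0.988 among the 4 arrays of replicates 1 and 2, and 0.75 to 0.785 between these sets. Eif2s3y, a Y-linked gene, read 9.83 in wild type and 9.59 in knockout on the replicate 3 arrays against 6.77 to 7.22 on the other 4, although all arrays are labelled female. Xist, which is active in female cells, read 6.88 to 7.82 on the 6 resting arrays and 9.83 to 11.12 on the fMLP arrays, so none of the resting arrays had the level of the fMLP arrays. Both genotypes of a pair were alike in these genes. Neutrophil markers were bright on all 6 arrays: S100a8 ranged from 13.30 to 13.83, Retnlg from 13.70 to 13.88 and Ly6g from 11.89 to 13.89. Genes of other marrow cells were also measurable, such as the B cell gene Cd79a at 9.60 to 11.67 and the eosinophil gene Prg2 at 9.58 to 11.98. In such bulk RNA, fewer cells of a type and less RNA per cell cannot be told apart.

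The knockout was plain in every pair, and almost nothing else passed the test. Lcn2 and Mrpl23, a mitochondrial ribosomal protein gene, were lower in the knockout at an adjusted p below 0.05, and no gene was higher. These 2 genes are 0.0172% of those tested in the limma fit of 3 pairs. At an unadjusted p below 0.05, 313 genes were higher (2.69%) and 525 lower (4.51%), together 7.2% of the genes tested. The count of 2 falls to 1 without the replicate block and is 8 without replicate 3.

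Lcn2 lies on chromosome 2. Its signal was 13.88, 13.93 and 14.02 in wild type replicates 1, 2 and 3, and 9.20, 8.36 and 8.09 in the knockout. The wild type arrays were close to each other, and the knockout arrays lay far below them without overlap. The 3 paired differences were -4.68, -5.57 and -5.92. Lcn2 fell, with a mean difference of -5.39 ± 0.64 (SD, n = 3 pairs) and a limma standard error of 0.17 (adjusted p = 1.55e-08). No fold is given, since the knockout signal in replicates 2 and 3 lay close to the median of all probe sets on those arrays (8.35 and 8.02). The fMLP arrays carried the same contrast, with 14.13 and 14.16 in wild type and 8.42 and 9.60 in the knockout.

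The genes around Lcn2 on chromosome 2 did not share its difference. Among the 20 nearest tested genes on each side, 17 had a mean difference below 0 and 23 above 0, with a median of 0.01. The lowest of the 40 was Sh2d3c at -0.13 and the highest Fam78a at 0.22. The 5 nearest on one side (Ciz1, Dnm1, Golga2, Uck1 and Pomt1) lay between -0.03 for Golga2 and 0.08 for Dnm1. Those on the other side (Slc25a25, Naif1, Fam102a, Dpm2 and 9430097D07Rik) lay between -0.04 for Dpm2 and 0.12 for Naif1. By limma, 0 of the 40 were called and 1, Fam78a, had an unadjusted p below 0.05.

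Mrpl23 encodes a protein of the large subunit of the mitochondrial ribosome and lies on chromosome 7. Its signal was 8.61, 8.52 and 10.16 in wild type replicates 1, 2 and 3, and 7.66, 7.88 and 9.64 in the knockout. The genotypes overlap when the arrays are pooled, because both replicate 3 arrays are brighter, and within each pair the knockout array is the lower. Mrpl23 fell, with paired differences of -0.95, -0.64 and -0.52 and a mean of -0.70 ± 0.22 (SD, n = 3 pairs). The limma standard error was 0.09 and the adjusted p 0.04. Here too no fold is given, since the knockout signal in replicates 1 and 2 lay below the median of all probe sets on those arrays (8.37 and 8.35). A further probe set named for Mrpl23 read 8.47, 8.46 and 10.07 in wild type and 7.85, 7.79 and 9.57 in the knockout, differences of -0.62, -0.66 and -0.50. On the fMLP arrays, which the test did not use, the differences of the first probe set were -0.33 and -0.71. The call is lost without replicate 1 (-0.58, adjusted p = 0.292), without replicate 2 (-0.73, adjusted p = 0.059) and without the replicate block (-0.70, adjusted p = 1), and the adjusted p over the alternatives that tested it ranged from 0.00714 to 1. The mouse genome also holds a pseudogene of Mrpl23, Mrpl23-ps1, on chromosome 2 with 115 tested genes between it and Lcn2, and which copy the probes read was not tested.

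The rest of the mitochondrial ribosome gave no call. Among 55 other tested genes of mitochondrial ribosomal proteins, 3 were lower in all 3 pairs (5.45%, against 12.2% of all genes tested) and 10 higher (18.2%, against 16.8%), the median was 0.02, and values ran from -0.29 for Mrps21 to 0.25 for Mrpl9. Of these 55, 1 was lower and 2 higher at an unadjusted p below 0.05 by limma, against 525 and 313 of all 11646 genes. The neighbours of Mrpl23 on chromosome 7 were also uncalled, among them Ctsd at -0.12, Lsp1 at -0.18, Tnnt3 at 0.11 and Igf2 at 0.11.

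Few genes had 3 paired differences alike in sign and size. The requirement was 1 sign, a smallest difference of at least 0.25 and a smallest difference at least 0.5 of the largest. It was met by 5 genes lower in the knockout (0.0429% of those tested), namely Lcn2, Mrpl23, Rsad2, Dtx3l and Snrnp35, and by 4 higher (0.0343%), namely Ankrd35, Klk15, C330007P06Rik and Olfr215. These genes were chosen on their differences, so the values that follow are a description with no test of their own. Apart from Lcn2 and Mrpl23, none passed the test across all genes, with adjusted p between 0.425 and 0.684.

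Rsad2 encodes viperin, an antiviral enzyme induced by interferon. Its signal was 8.39, 9.14 and 10.30 in wild type and 7.98, 8.77 and 9.63 in the knockout, which gives -0.41, -0.37 and -0.67 and a mean of -0.48 ± 0.16 (SD, n = 3 pairs, adjusted p = 0.425). The knockout array was the lower in each pair, although the pairs themselves differed by more than the genotypes. Dtx3l, an interferon-inducible ubiquitin ligase, read 8.72, 8.82 and 10.61 in wild type and 8.38, 8.18 and 10.27 in the knockout, with a mean difference of -0.44 ± 0.17 (adjusted p = 0.595). Snrnp35, a protein of the minor spliceosome, read 8.74, 8.50 and 8.24 against 8.45, 8.13 and 7.91, with a mean of -0.33 ± 0.04 (adjusted p = 0.684). Snrnp35 was the only one of these 3 that was dimmer on the replicate 3 arrays.

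The 4 genes with higher values had differences of nearly 1 size. Ankrd35, an ankyrin repeat protein, read 8.57, 8.39 and 7.59 in wild type and 8.88, 8.68 and 7.89 in the knockout, or 0.31, 0.29 and 0.30. Klk15, a kallikrein-family protease, differed by 0.27, 0.26 and 0.29, C330007P06Rik by 0.26, 0.30 and 0.29, and Olfr215, an olfactory receptor gene, by 0.26, 0.26 and 0.25. All 4 were dimmer on the replicate 3 arrays, where Ankrd35, Klk15 and Olfr215 lay below the median of all values (8.27). With median centring of the arrays 1 gene met the rule for higher values, and with the filter at the 75th percentile 0 did. At the edges of the rule, the smallest difference was 0.2502 for Olfr215 just inside and 0.2374 for Gm9884 just outside. The ratio of smallest to largest was 0.5293 for Dtx3l inside and 0.3912 for F13a1 outside.

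**Figure D1:**
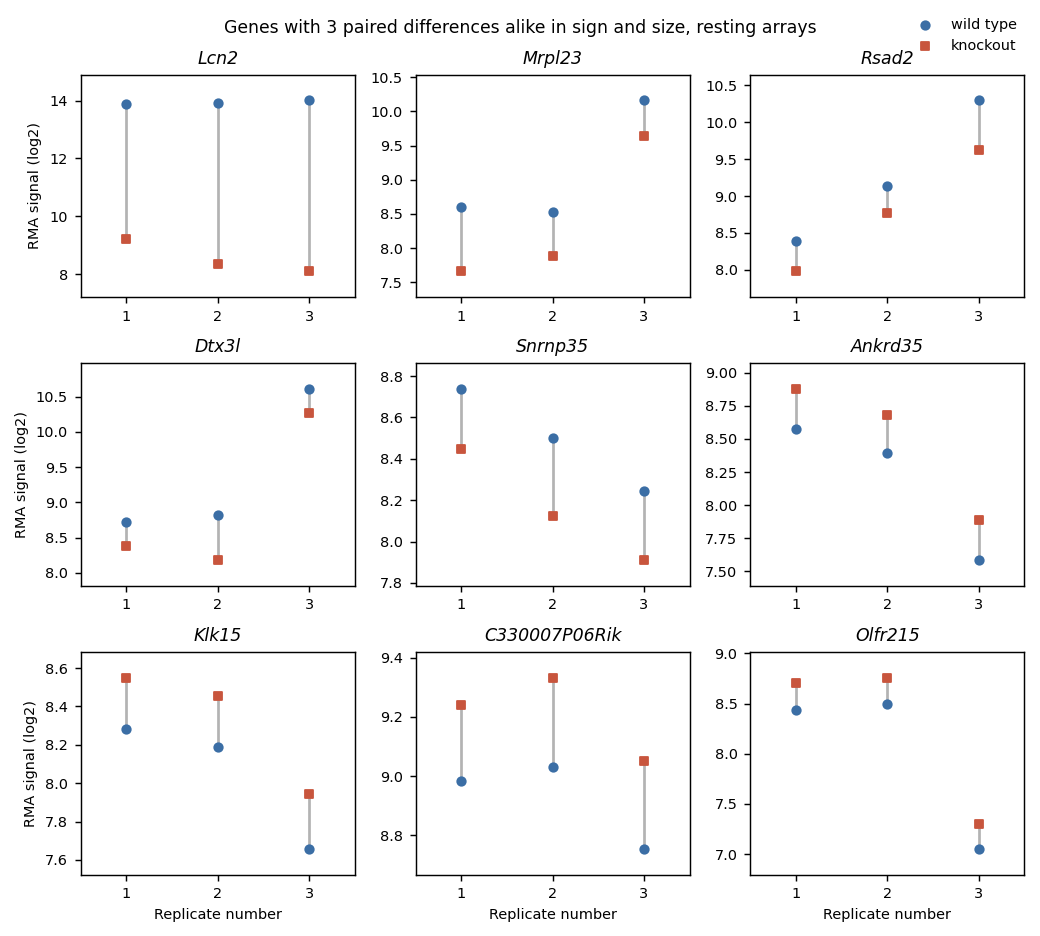
RMA signal (log2, vertical axes with a scale of their own) of the 9 genes with 3 paired differences alike in sign and size, by replicate number. Blue circles are wild type arrays, red squares knockout arrays and grey lines join a pair; for Lcn2 the squares lie at 8.09 to 9.20 under circles at 13.88 to 14.02, and for Mrpl23, Rsad2 and Dtx3l the replicate 3 pair stands higher than the other pairs.

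A wider rule, chosen after seeing the data, asked only for 1 sign and a smallest difference of at least 0.2. It took in 18 genes lower in the knockout (0.155%) and 11 higher (0.0945%). Among the 13 added on the lower side were the interferon-induced genes Ifit3, Oas3 and Ifi207, the chemokine receptor Ccr1, the primary granule protease Prtn3, the SLAM family receptor Cd84, the adaptor Fyb, the coagulation factor gene F13a1, and Il1f9, a cytokine of the interleukin 1 family. Cd84 read 9.58, 10.07 and 12.09 in wild type and 8.94, 9.53 and 11.88 in the knockout, differences of -0.64, -0.55 and -0.20. Mycbp, a protein that binds Myc, had the lowest mean of the added genes, at -0.53, of which replicate 2 gave -1.01. The 7 added on the higher side were Gm9884, Avpr1b, Lce3c, Synb, Gm16223, Eif3m and Glcci1. Lce3c had the highest mean of these, 0.42, from pairs of 0.23, 0.54 and 0.49. Of the 17 lower genes other than Lcn2, 16 were brighter on the replicate 3 arrays, against 50.9% of all genes tested.

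The fMLP arrays give a look at the same genes in cells that were not used to choose them. Of those 17 genes, 13 were also lower in the knockout in fMLP replicate 1 (76.5%, against 50.1% of all genes tested) and 16 in fMLP replicate 2 (94.1%, against 59.3%). Of the 4 lower genes other than Lcn2 under the first rule, 2 were lower in fMLP replicate 1 (50%, near the share of all genes). All 4 were lower in fMLP replicate 2. Fyb differed by -0.11 and -1.41 there, Mgam by -0.36 and -1.39, and Rsad2 by -0.51 and -1.32. Dtx3l differed by 0.01 and -1.20, and Snrnp35 by 0.23 and -0.03. The large values all come from fMLP knockout replicate 2, an array unlike the rest, with a Snap25 signal of 13.43 against at most 8.78 on the other 9 arrays. In fMLP replicate 2 the median difference was -0.62 in the brightest decile of the tested genes and -0.10 over all of them. Of the 11 higher genes, 6 were higher in fMLP replicate 1 (54.5%, against 49.9% of all genes tested) and 6 in replicate 2 (54.5%, against 40.7%). In both, 3 were higher (27.3%, against 25.3% of all genes tested). Of the 4 higher genes under the first rule, 2 were higher in fMLP replicate 1 (50%) and 3 in replicate 2 (75%). Ankrd35 differed by -0.17 and 0.25, and Olfr215 by -0.15 and -0.11.

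The pairs agreed weakly across the whole table. Without Lcn2, Pearson's r between paired differences over 11645 genes was 0.165 for replicates 1 and 2, 0.02 for replicates 1 and 3 and 0.063 for replicates 2 and 3, as a description across genes, which are not independent replicates. The shares of genes with 1 sign in 2 pairs were 54.7%, 51.8% and 51.6%. Differences of at least 0.5 in size numbered 168 in replicate 1, 205 in replicate 2 and 42 in replicate 3. Replicates 1 and 2 shared 12 of these with 1 sign (7.14% and 5.85% of the respective lists), replicates 1 and 3 shared 2 (1.19% and 4.76%), and replicates 2 and 3 shared 4 (1.95% and 9.52%), Lcn2 included each time. In all 3 pairs, 1425 genes (12.2%) lay below 0 and 1960 (16.8%) above 0.

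The sign of a difference moved with how bright a gene was. In the dimmest decile of the tested genes the median difference was 0.05, 0.07 and 0.04 in replicates 1, 2 and 3, and in the brightest decile it was -0.09, -0.15 and -0.0033. Among the 1165 brightest genes, 323 (27.7%) were lower in all 3 pairs and 48 (4.12%) higher. The 21 tested neutrophil markers averaged 11.57 to 13.04 on the 6 arrays, against 9.02 to 9.27 for all tested genes, so some of the gene groups described next are set beside these shares too. How far signal level takes part in the values of these groups was not tested. Of the 21 markers, some of which are also granule genes, 20 had a mean below 0, against 934 of the 1165 brightest. Their median was -0.15, with pair medians of -0.10, -0.30 and -0.03. In all 3 pairs 5 were lower (23.8%) and 0 higher. Scaling to 1 interquartile range multiplied all log2 values of an array by 1 factor, without centring. The level of each array thus moved with its spread. The median difference of all genes went from 0.01 to 0.13 (0.08, 0.24 and 0.06 in replicates 1, 2 and 3). After it 187 genes (1.61%) were lower in all 3 pairs and 5448 (46.8%) higher. In the brightest decile these were 32 (2.75%) and 276 (23.7%). A mean below 0 was left in 1715 of 11646 genes and in 452 of 1165 in the brightest decile. Quantile normalization gave 1375 genes (11.8%) lower and 1850 (15.9%) higher in all 3 pairs, and median centring 1785 (15.3%) and 1547 (13.3%). Counts by direction thus moved most under the uncentred scaling, and for the lists they are given as deposited and after it.

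**Figure D2:**
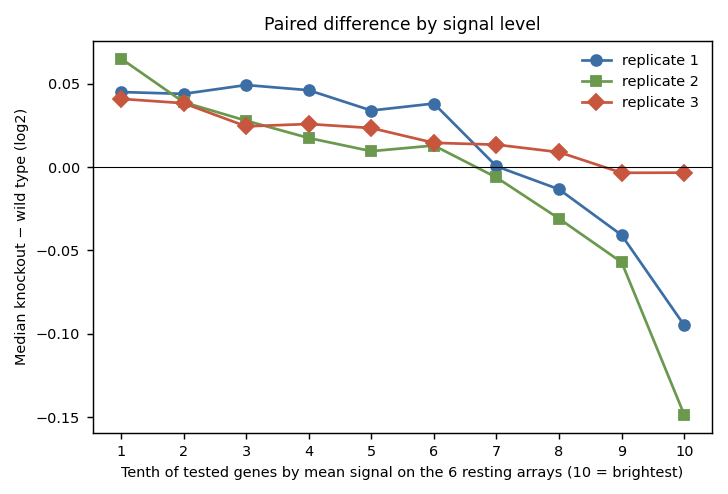
Median knockout minus wild type difference (log2, vertical axis) of the tested genes in deciles of mean signal on the 6 resting arrays (horizontal axis, 10 is the brightest), for replicates 1 to 3 as blue circles, green squares and red diamonds. All lines start at 0.04 to 0.07 in the dimmest decile, and in the brightest decile replicates 1 and 2 reach -0.09 and -0.15 while replicate 3 stays at -0.0033.

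Interferon response genes had lower values in the knockout as deposited, most of all in replicate 3. These genes are switched on when type I interferon binds its receptor, and many encode antiviral proteins. Of 43 tested members, 14 were lower in all 3 pairs (32.6%, against 12.2% of all genes tested and 27.7% of the brightest decile) and 1, Pml, was higher. None was called by limma, and the smallest adjusted p was 0.425. At an unadjusted p below 0.05 by limma 13 were lower and 1 higher. Of all 11646 genes 525 were lower and 313 higher at that threshold, and of the 1165 brightest 180 and 4. Members with a value below 0 numbered 25 in replicate 1, 23 in replicate 2 and 40 in replicate 3, with medians of -0.04, -0.07 and -0.22. Of all 11646 genes these counts were 5462, 5912 and 5027, and of the 1165 brightest 837, 879 and 597. The list thus stood apart from both in replicate 3 only. After quantile normalization 14 members were lower in all 3 pairs, and after median centring 18. Relative to the median of all genes, the median of the list was -0.09 as deposited and -0.08 after interquartile range scaling, under which its own median turned to 0.05, 18 of 43 members had a mean below 0, and 4 were lower and 5 higher in all 3 pairs.

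The members with the smallest p were Rsad2, Oas3, Ifit3 and Oasl2. Oas3 makes the signal molecule that activates RNase L, and read 9.03, 9.20 and 10.64 in wild type and 8.80, 8.72 and 10.00 in the knockout. Its differences were -0.23, -0.47 and -0.65, a mean of -0.45 (adjusted p = 0.595). Ifit3, a partner of the proteins that bind foreign RNA ends, read 9.02, 9.25 and 9.92 against 8.67, 8.99 and 9.22, a mean of -0.43 (adjusted p = 0.684). Oasl2, a relative of the Oas enzymes, differed by -0.34, -0.11 and -0.87. In each of these 4 genes the replicate 3 pair gave the lowest difference.

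Members of this list were frequent among the low values of replicate 3. Of the 25 genes lower by at least 0.5 in that pair, 11 were on the interferon list, which holds 43 of the 11646 genes tested. Among them were Rtp4, Oasl2, Ifit3, Oas2, Usp18 and Gbp7. Rtp4, an interferon-induced inhibitor of viral replication, read 10.27 in wild type replicate 3 and 9.20 in the knockout, a difference of -1.08, against -0.28 and -0.11 in replicates 1 and 2. Of the 11, 8 were below 0 in replicate 1 as well and 7 in replicate 2, against 5462 and 5912 of all 11646 genes tested. Monocyte and macrophage genes had lower values beside them: 8 of 17 tested members were lower in all 3 pairs (47.1%, against 12.2% of all genes tested and 27.7% of the brightest decile) and 0 higher. Their medians were -0.10, -0.08 and -0.23. In replicate 3, 17 of 17 were below 0, against 5027 of 11646 genes and 597 of 1165 in the brightest decile. After interquartile range scaling 1 of the 17 was lower in all 3 pairs, against 8 after quantile normalization and 8 after median centring. F13a1 differed by -0.31, -0.28 and -0.71, and Mpeg1, a pore-forming protein of phagocytes, by -0.27, -0.21 and -0.17. The list's mean signal on the 6 arrays ran from 9.27 to 10.76 in wild type and from 9.21 to 10.49 in knockout. The brightest decile is a brighter set, at 10.38 to 11.72 in wild type and 10.26 to 11.7 in knockout. None of the 17 was called, and their part in the interferon values was not tested. At an unadjusted p below 0.05 by limma 6 were lower, against 525 of 11646 genes and 180 of 1165 in the brightest decile.

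Promoters of the 3 genes that lead the list are shown because promoters of interferon-induced genes are known to carry a repeated GAAA element. The motif searched was GAAA, any 2 bases and GAAA again, on either strand. Where it lies on the opposite strand it reads as TTTC, 2 bases and TTTC, and capitals mark each match. Sequences are the 250 bases before the transcription start, 5′ to 3′ on the gene's strand, from RefSeq on GRCm38.p6. Rsad2 lies at chr12:26456453-26456702 (minus strand), Ifit3 at chr19:34583279-34583528 (plus strand) and Oas3 at chr5:120777660-120777909 (minus strand).
Rsad2: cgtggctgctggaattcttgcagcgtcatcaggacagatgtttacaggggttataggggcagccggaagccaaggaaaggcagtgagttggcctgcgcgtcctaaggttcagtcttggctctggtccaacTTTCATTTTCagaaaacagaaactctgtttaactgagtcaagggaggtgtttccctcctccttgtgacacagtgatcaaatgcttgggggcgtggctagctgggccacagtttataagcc
Ifit3: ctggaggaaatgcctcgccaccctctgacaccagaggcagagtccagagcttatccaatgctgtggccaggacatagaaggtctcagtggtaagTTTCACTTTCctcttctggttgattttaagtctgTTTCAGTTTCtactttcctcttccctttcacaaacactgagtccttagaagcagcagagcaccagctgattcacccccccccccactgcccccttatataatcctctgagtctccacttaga
Oas3: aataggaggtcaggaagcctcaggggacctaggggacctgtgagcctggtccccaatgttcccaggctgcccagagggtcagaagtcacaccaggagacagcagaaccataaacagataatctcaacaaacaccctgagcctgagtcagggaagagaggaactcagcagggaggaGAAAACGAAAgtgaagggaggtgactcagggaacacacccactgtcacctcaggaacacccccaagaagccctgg
In Rsad2 the motif began 120 bases before the start, in Ifit3 156 and 122 bases before it, and in Oas3 75 bases before it. The window of Dtx3l held no match. Among all 32851 windows of 300 bases (250 before to 50 after the start), 3.44% held the motif, and by gene it was in 3.99% of 27025 genes with a window. It was present in 27 of 52 interferon list genes with a window (51.9%). Of the tested members, 35 have a window: the motif was in 4 of the 12 of these that were lower in all 3 pairs (33.3%) and in 11 of the 23 others (47.8%).

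B cell genes went different ways in the 3 pairs. The median of 18 tested members was -0.22 in replicate 1, 0.10 in replicate 2 and 0.39 in replicate 3, where all 18 were above 0. Cd79a, a chain of the B cell receptor complex, read 9.87, 9.81 and 11.14 in wild type and 9.60, 9.98 and 11.67 in the knockout, differences of -0.27, 0.17 and 0.53. Of MHC class II, which presents peptides to T cells, 3 genes with large values in replicate 3 also had opposite signs in replicates 1 and 3: Cd74 differed by -0.82 in replicate 1 and 0.83 in replicate 3, H2-Aa by -1.30 and 0.83, and H2-Ab1 by -0.73 and 0.66. Erythroid genes also varied by pair, with medians of -0.14, 0.09 and -0.07, and 0 of 18 had 1 sign in all 3 pairs. By limma 0 of the 18 B cell and 0 of the 18 erythroid genes had an unadjusted p below 0.05.

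**Figure D3:**
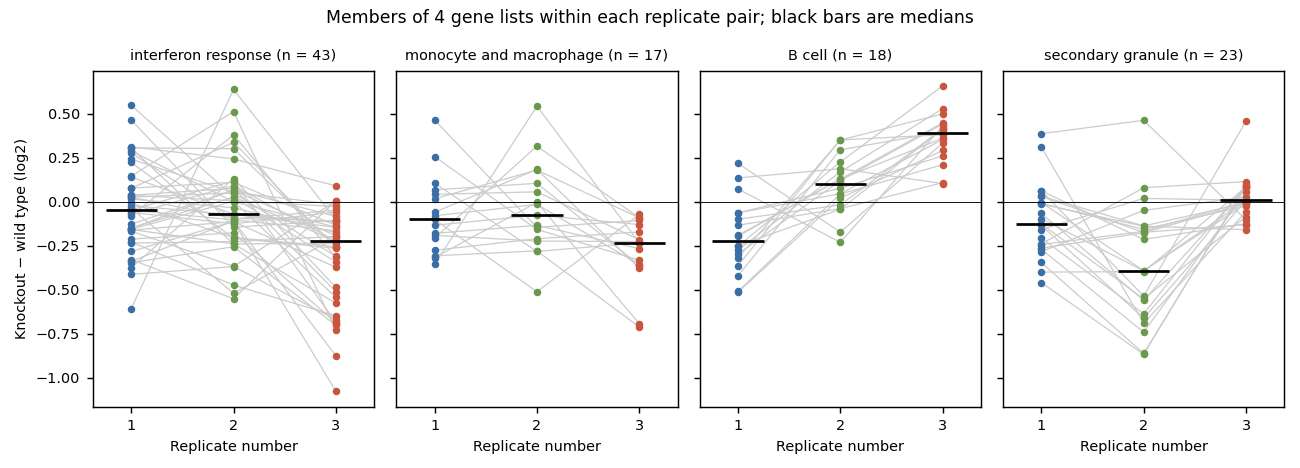
Knockout minus wild type difference (log2, vertical axes) of each tested member of 4 gene lists in replicates 1, 2 and 3, with grey lines joining a gene's values and black bars for medians. Interferon response and monocyte genes sit lowest in replicate 3 (medians -0.22 and -0.23), B cell genes are at 0.39 there after -0.22 in replicate 1, and secondary granule genes sit lowest in replicate 2 (-0.39).

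Secondary granule genes, the group to which Lcn2 itself belongs, had pair medians below 0 in replicates 1 and 2 and near 0 in replicate 3. Of 23 tested members without Lcn2, 22 had a mean below 0 (934 of 1165 in the brightest decile), with pair medians of -0.12, -0.39 and 0.01, and 5 were lower in all 3 pairs (21.7%, against 12.2% of all genes and 27.7% of the brightest decile) while 0 were higher. The members lower in all 3 pairs were Mmp8, Tcn2, Ngp, Slpi and Cebpe. Ltf, the gene of the iron-binding protein lactoferrin, read 12.96, 12.68 and 13.92 in wild type and 12.69, 11.94 and 13.98 in the knockout, differences of -0.27, -0.74 and 0.06. Chil3, a chitinase-like protein, differed by -0.46, -0.87 and 0.10, and Cybb, the catalytic subunit of the NADPH oxidase, by -0.34, -0.86 and 0.09. Mmp8, the neutrophil collagenase, differed by -0.12, -0.55 and -0.08. After interquartile range scaling 12 of the 23 had a mean below 0, against 1715 of 11646 genes and 452 of 1165 in the brightest decile. The list median was then -0.01, and 0 were lower and 2 higher in all 3 pairs. Relative to the median of all genes it was -0.15 as deposited and -0.14 after this scaling. For the brightest decile these values were -0.10 and -0.09. Quantile normalization left 3 lower in all 3 pairs, and median centring 8. None of the 23 was called. At an unadjusted p below 0.05 by limma 6 were lower, against 525 of 11646 genes and 180 of 1165 in the brightest decile. On the higher side it was 1, against 313 and 4.

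Primary granule genes showed the same split by pair. Their 14 tested members had medians of -0.28, -0.27 and -0.02, 3 were lower in all 3 pairs (Prtn3, Ctsg and Man2b1, 21.4%, against 12.2% of all genes and 27.7% of the brightest decile) and 1 higher (Fcnb). After interquartile range scaling 7 of the 14 had a mean below 0, against 1715 of 11646 genes and 452 of 1165 in the brightest decile. The list median was then -0.02, and 1 was lower and 2 higher in all 3 pairs. Relative to the median of all genes it was -0.15 both as deposited and after this scaling. Mpo, the gene of myeloperoxidase, read 11.07, 11.20 and 12.61 in wild type and 10.27, 10.81 and 12.62 in the knockout, differences of -0.79, -0.39 and 0.02. Ctsg, the gene of the serine protease cathepsin G, differed by -0.71, -0.21 and -0.19, and Prtn3, which encodes proteinase 3, by -0.40, -0.36 and -0.21. Tertiary granule genes had pair medians nearer 0 in replicates 1 and 2, at -0.0025, -0.0077 and -0.02 in replicates 1, 2 and 3. The median of their mean differences was -0.08, 9 of 14 had a mean below 0, and 1 was lower and 1 higher in all 3 pairs. Mmp9, the gelatinase that lipocalin 2 binds, differed by 0.03, -0.44 and -0.03. By limma 0 of the 14 primary and 0 of the 14 tertiary genes were called, with 5 and 0 at an unadjusted p below 0.05. All 5 were lower, against 525 of 11646 genes and 180 of 1165 in the brightest decile.

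Chemoattractant receptors and the proteins that carry their signal had a median difference of -0.11, against -0.09 in the brightest decile. These receptors signal through Gi proteins, whose released subunits lead to activation of phosphoinositide 3-kinase and Rac. Of 31 tested members, 12 were lower in all 3 pairs (38.7%, against 12.2% of all genes and 27.7% of the brightest decile) and 2 higher, Ptafr and Grk6, with medians of -0.08, -0.21 and -0.06. After interquartile range scaling 1 was lower in all 3 pairs and 4 higher. Quantile normalization left 13 lower in all 3 pairs, and median centring 14. The formyl peptide receptor genes on the list were not analysed here, and the receptors measured are those of other ligands. Ccr1 read 9.49, 9.49 and 11.39 in wild type and 9.0, 9.16 and 11.18 in the knockout, differences of -0.49, -0.33 and -0.21. Rgs18, which limits G protein signals, differed by -0.35, -0.78 and -0.05, Pik3cg by -0.54, -0.35 and -0.06, and Gnai3 by -0.34, -0.17 and -0.06. None was called. At an unadjusted p below 0.05 by limma 5 were lower, against 525 of 11646 genes and 180 of 1165 in the brightest decile. All 11 tested NADPH oxidase genes had a mean below 0 as deposited, against 5288 of 11646 genes and 934 of 1165 in the brightest decile. After interquartile range scaling 5 of the 11 did, against 1715 of 11646 and 452 of 1165. The list medians were -0.09 as deposited and 0.04 after scaling. The pair medians of these genes were -0.12, -0.24 and 0.02 as deposited. Of the 11, 3 were lower in all 3 pairs (27.3%, against 27.7% of the brightest decile), and 0 after scaling. By limma 3 were lower at an unadjusted p below 0.05, against 180 of 1165 in the brightest decile, and none passed after adjustment.

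Cytosolic ribosomal protein genes, a family with many processed copies that probes can share, had the lowest values in replicate 1. Of 45 tested, 18 were lower in all 3 pairs (40%, against 12.2% of all genes and 27.7% of the brightest decile) and 1 higher, with medians of -0.21, -0.10 and -0.01. Rpl10a read 11.31, 11.64 and 12.60 in wild type and 10.14, 11.42 and 12.55 in the knockout, so that its -1.17 in replicate 1 stood beside -0.23 and -0.04. Rpl28 differed by -0.68, -0.32 and -0.06. By limma 0 of the 45 were called, with 11 lower and 1 higher at an unadjusted p below 0.05. Of all 11646 genes 525 were lower and 313 higher at that threshold, and of the 1165 brightest 180 and 4. Quantile normalization left 14 of the 45 lower in all 3 pairs, and median centring 20. After interquartile range scaling 1 of the 45 was lower and 5 were higher in all 3 pairs. That scaling turned the medians of the ribosomal (0.03), chemoattractant (0.01) and monocyte (0.007) lists above 0, while relative to all genes they were -0.10, -0.12 and -0.12.

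Iron handling genes, the pathway closest to the known role of lipocalin 2, lay near 0. Of 34 tested members 5 were lower in all 3 pairs (14.7%, against 12.2% of all genes) and 4 higher (11.8%, against 16.8%), with medians of -0.06, -0.02 and 0.01. Ncoa4, which delivers ferritin for breakdown, differed by -0.30, -0.42 and 0.01, Pcbp1, an iron chaperone, by -0.33, -0.38 and 0.04, and Hjv, the hemojuvelin gene, by 0.11, 0.23 and 0.12. Slc22a17, a receptor for lipocalin 2, read 9.66, 9.41 and 8.58 in wild type and 9.72, 9.59 and 8.72 in the knockout, with a mean of 0.13 (adjusted p = 0.708). Other lipocalins that were tested, such as Lcn11 at 0.13 and Lcn9 at 0.11, were not called. After interquartile range scaling 0 of the 34 were lower and 13 higher (38.2%) in all 3 pairs, against 46.8% of all genes higher. By limma 0 of the 34 iron genes were called and 3 were lower at an unadjusted p below 0.05, against 525 of 11646 genes.

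**Figure D4:**
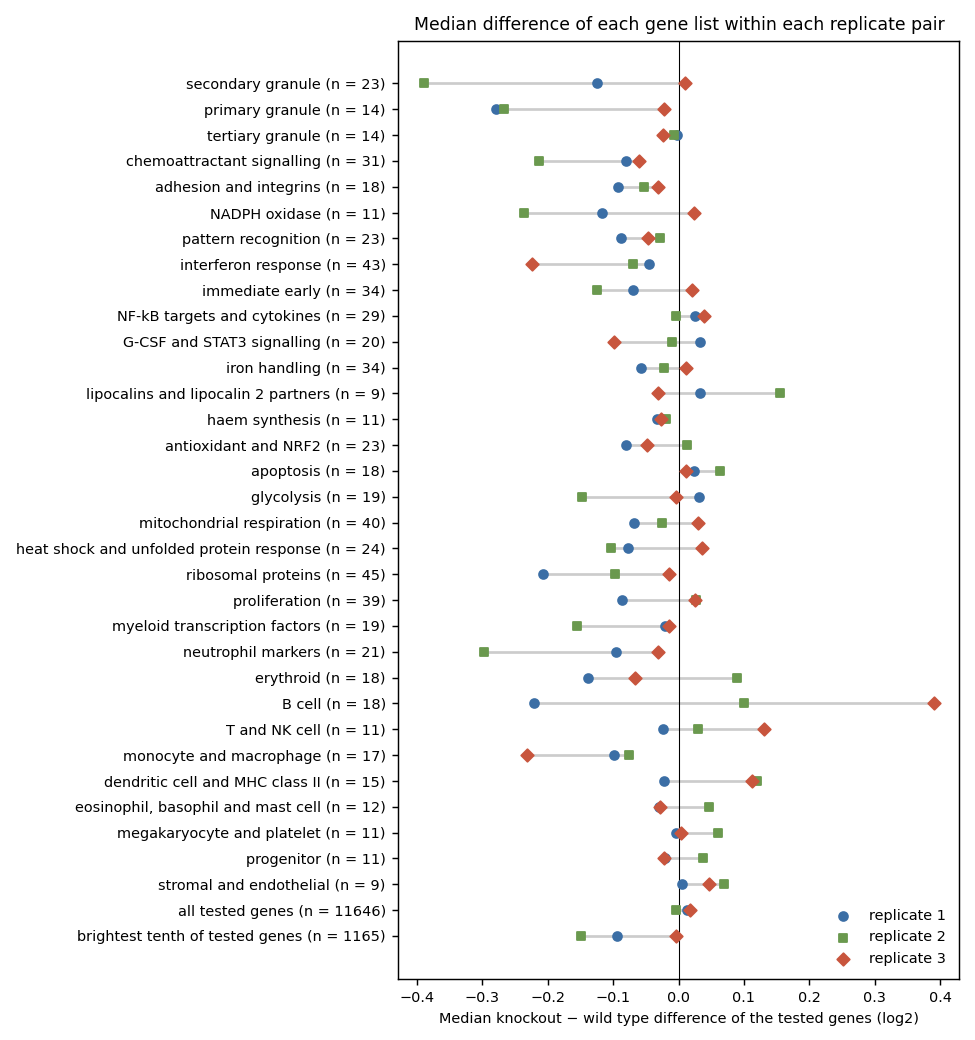
Median knockout minus wild type difference (log2, horizontal axis) of the tested members of each gene list in replicate 1 (blue circles), replicate 2 (green squares) and replicate 3 (red diamonds), with the number of tested members beside each name. Primary granule genes lie at -0.28, -0.27 and -0.02, iron handling genes at -0.06, -0.02 and 0.01, and all tested genes within 0.02 of 0.

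Some genes were called from replicates 1 and 2 and had little or opposite difference in replicate 3. Without replicate 3, limma called 8 genes: Lcn2, Mrpl23, Npm1, Serpinb10, Lims1, Wfdc17, Degs1 and Chil3. Npm1, the nucleolar chaperone nucleophosmin, differed by -1.17 and -0.63 in replicates 1 and 2 and by -0.02 in replicate 3. Lims1, an adaptor of integrin signalling, differed by -0.54, -0.93 and -0.03, Serpinb10 by -0.58, -0.93 and 0.13, and Degs1, an enzyme of ceramide synthesis, by -0.55, -0.67 and 0.03. Wfdc17, a gene of activated myeloid cells, was higher in replicates 1 and 2, by 0.57 and 0.75, and lower in replicate 3, by -0.86. Only Lcn2 and Mrpl23 of the 8 kept a difference over 0.5 in replicate 3 with the sign of the other pairs.

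**Figure D5:**
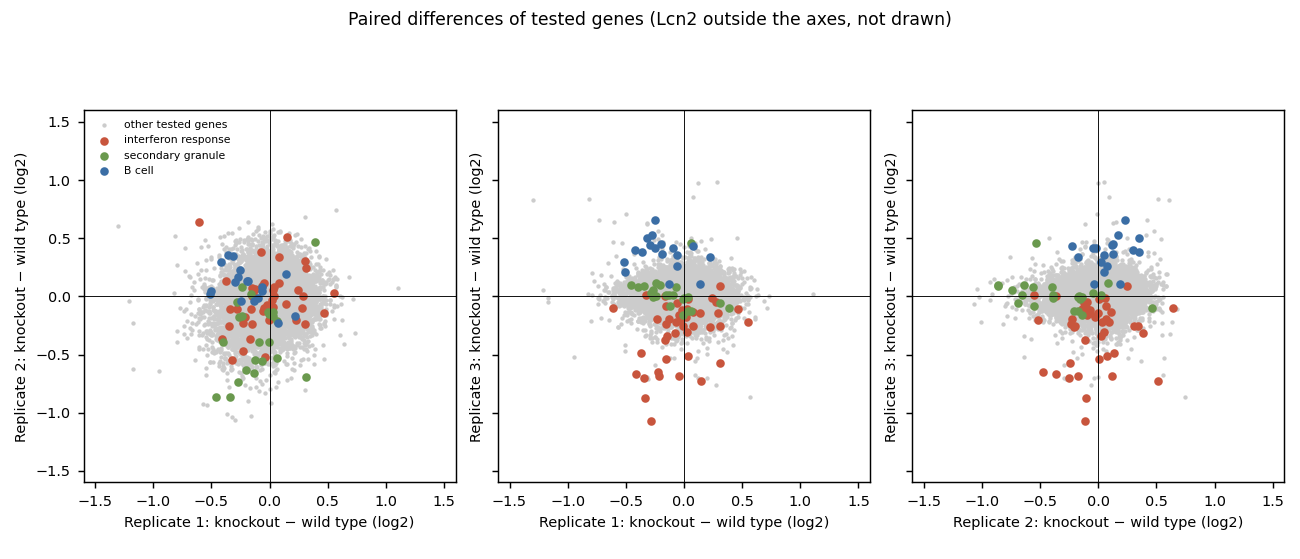
Knockout minus wild type difference (log2, both axes) of each tested gene in one replicate pair against another, with interferon response genes in red, secondary granule genes in green, B cell genes in blue and other tested genes in grey. Lcn2 lies outside the axes and is not drawn; the clouds have r between 0.02 and 0.165 without it, and in both panels with replicate 3 the blue points lie above 0 and most red points below 0 on that axis.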

How the data were processed

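RNA of 6 resting arrays (3 wild type, 3 knockout) was analysed, with 4 fMLP arrays as a further reading. The authors ran Affymetrix Expression Console with RMA (background correction, normalization and summary per probe set) before deposit, per the submitters' processing notes, and the deposited signals are treated here as log2 values. That base was read off the range of the values and is not given in the sources used here. Whether all arrays were normalized in 1 run is not given either. Arrays have no read depth, so their number limits the precision: an exact sign-flip test over 3 pairs cannot go below p = 0.25, nor an exact permutation test of 3 against 3 below 0.1.

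Of 35556 probe sets, 21789 name 1 gene, 1621 several and 12146 none in the platform annotation, and 21698 matched the RefSeq gene table by Entrez ID. Where a gene had several probe sets, that of highest mean signal was taken (999 of 19938 genes have several). Genes above 8.27, the median of all values, on at least 3 resting arrays were tested. The fit used limma 3.58.1 in R 4.3.3 (lmFit, eBayes, 2 residual and 9.6 prior degrees of freedom) with a fixed block for the replicate number, two-sided, with Benjamini-Hochberg adjustment over 11646 genes and calls below 0.05. The script was tested on simulated data. The labels give the numbers only, and the pairing was checked on the arrays: deviations from the group means of same-numbered arrays correlated at 0.949, 0.929 and 0.988. Arrays of replicates 1 and 2 with different numbers correlated at 0.866 and 0.872, so these values mostly show the split between replicate 3 and the others, and those of replicate 3 with the others at -0.929 to -0.958.

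The alternatives were no block, the array set as a block or the number as a random block (statmod 1.5.0), all 10 arrays, quantile normalization, median centring, interquartile range scaling, no filter or a stricter one (9.16), the mean of probe sets, a robust variance trend, no moderation, and leaving out each replicate. Named genes were Lcn2, called genes, genes with steady differences, up to 4 members per described list with the smallest p, and the nearest neighbours of Lcn2. Further genes in the text, such as those of the wider rule, of replicate 3 alone and of the fit without replicate 3, and members with 1 sign in all pairs, were picked after their values were seen. The 33 gene lists and the members were chosen with earlier results of these data known.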

Additional observations from a re-analysis of the deposited data

How the results depend on the processing

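Lcn2 kept its direction and its call under all alternatives run but the fit without moderation (-5.39, adjusted p = 0.85). Other calls depended on the pairing: without the replicate block 1 gene was called (1 at an unadjusted p below 0.05), against 2 with it. The count was also 1 with the array set as block, the number as a random block, all 10 arrays, quantile normalization, interquartile range scaling, no filter and the stricter filter, was 0 without moderation (581 genes at an unadjusted p below 0.05), and ran from 1 to 8 when a replicate was left out.

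Mrpl23 stayed below 0 throughout and missed the threshold without the block (-0.70, adjusted p = 1), with the array set (-0.70, 0.367) or a random block (-0.70, 0.406), with all 10 arrays (-0.70, 1), quantile normalization (-0.73, 0.667), interquartile range scaling (-0.64, 0.158), no filter (-0.70, 0.109) and no moderation (-0.70, 0.85), and when a replicate was left out it ran from -0.58 to -0.80. Genes with steady differences numbered 5 lower, and 8 after quantile normalization, 1 after interquartile range scaling, 1 under the stricter filter, 2 with a smallest difference of 0.5, 18 under the wider rule, and 13 to 241 with a replicate left out. On the higher side 4 became 1 after quantile normalization or median centring, 8 with no filter, 0 under the stricter filter or with 0.5, 11 under the wider rule, and 12 to 63 with a replicate left out. With 2 pairs the rule is easier to meet. Cd33 turned from -0.11 to 0.04 after interquartile range scaling, under which the median of all genes was 0.13. It stayed at -0.05 after quantile normalization and -0.12 after median centring. The interquartile range scaling, being uncentred, moves the level of whole arrays by construction. The cause of the other shifts was not tested.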

Other observations

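Single genes with large differences in replicate 3 alone include Nnt, the mitochondrial transhydrogenase, at 8.81, 8.91 and 10.32 in wild type and 9.0, 8.61 and 9.62 in the knockout. The replicate 3 difference was -0.70. Timm17a, a subunit of the mitochondrial import channel, had higher values in all 3 pairs (0.40, 0.39 and 0.17), while Cox7b and Uqcrb of the respiratory chain were lower, most in replicate 1 (-0.74 each). Gfi1, a transcription factor of granulocyte development, differed by 0.21, 0.33 and 0.13, and Cebpd by -0.26, -0.18 and -0.16. The adjusted p of each of these genes other than Nnt was 0.684. Lrg1, a secreted granule glycoprotein, differed by 0.39, 0.46 and -0.10.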
